A study of Mus musculus with 24 samples.

Results

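The circadian clock genes examined here are Arntl (also called Bmal1), Clock, Per1, Per2, Per3, Cry1, Cry2, Nr1d1, Nr1d2 and Dbp, followed through the gastrointestinal tract of germ-free and conventional mice. They were taken by gene symbol, a rule that uses no measured value, though the set was chosen with earlier results of these data known, and gave 12 of the 12488 probe sets on the array, or 10 of the 8252 genes that have a probe set of their own. Cry1 had 3 probe sets and each other gene had 1. Of the 12, 9 probe sets for 9 genes were bright enough to be tested, among 9033 probe sets tested in all. The probe set of Dbp and the 2 further Cry1 probe sets were not.

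Total RNA from whole-thickness tissue was measured on 24 one-colour Affymetrix arrays. Germ-free mice gave 3 arrays each of jejunum, rectum, descending colon and the corpus, the stomach apart from its antrum, and conventional mice gave 3 of each as well, which makes 8 groups. Germ-free mice carry no microbiota and conventional mice do. The labels say that the pieces were cut from each mouse, but not that arrays with the same number in different regions come from the same mouse, and the p-values below thus rest on array-to-array spread, which may be technical. Strain, genotype, sex, age, feeding, the number of mice, and the hour at which the tissues were taken are not given in the sources used here.

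In mammals the clock is a transcriptional loop that runs over about a day in nearly every tissue, the gut included. CLOCK and BMAL1, the protein of Arntl, bind E-boxes together and switch on the Per, Cry, Nr1d and Dbp genes, and PER and CRY proteins then repress CLOCK and BMAL1. The products of Nr1d1 and Nr1d2, REV-ERB alpha and REV-ERB beta, repress Arntl, so that Arntl and Nr1d transcripts peak at opposite times of day, while DBP activates genes through D-boxes. Since the hour is unstated here, a difference in phase and a difference in overall level cannot be told apart for any of these genes.

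The promoters of these genes carry the elements of the loop to different extents. RefSeq promoter windows on GRCm38.p6, each of 300 bases from 250 before to 50 after a start site, were held for 9 of the 10 genes, in 13 windows; Per2 had none. They were searched on both strands for the E-box CACGTG, the D-box as TTATGTAA or TTACGTAA, the cAMP response element TGACGTCA, and AGGTCA, the core letters that ROR and REV-ERB receptors bind. Among 32851 promoter windows, 7.15% held the E-box, 1.06% a D-box, 1.79% the cAMP response element and 16.3% AGGTCA. The stretches below show the matches upstream of a start site in genes whose signals are compared below, read 5′ to 3′ on the gene's strand, with the matched letters in capitals and 25 bases on either side.
Cry1, E-box, chr10:85185084-85185139, minus strand: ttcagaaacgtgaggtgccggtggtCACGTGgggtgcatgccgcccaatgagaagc
Per1, E-box then AGGTCA on the opposite strand, chr11:69098758-69098842, plus strand: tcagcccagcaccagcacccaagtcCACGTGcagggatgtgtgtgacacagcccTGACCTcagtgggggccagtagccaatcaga
Per3, a pair of D-boxes, chr4:151044791-151044895, minus strand: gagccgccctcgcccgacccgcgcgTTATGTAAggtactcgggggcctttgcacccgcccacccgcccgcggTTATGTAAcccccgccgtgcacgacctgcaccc
Nr1d2, AGGTCA, chr14:18239153-18239208, minus strand: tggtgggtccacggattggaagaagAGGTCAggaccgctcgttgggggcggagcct
Clock, AGGTCA on the opposite strand, chr5:76303591-76303646, minus strand: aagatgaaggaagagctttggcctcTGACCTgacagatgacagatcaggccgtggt

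The E-box of Cry1 began 60 bases before the start site of its window, that of Per1 166 bases before it, and the D-boxes of Per3 205 and 158 bases before it. Per1, Clock and Arntl also had windows at other start sites that held no match. Arntl held AGGTCA within its transcribed part, and the windows of Cry2, Dbp and Nr1d1 held none of these letters. A match describes letters in a window and not a bound site, and no match says only that the letters are not in that window.

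The deposited signals are linear, and the probe sets of different genes are on scales of their own, so that only 1 gene at a time is compared between arrays. Signals under 21.2 were set to that floor before log2, and differences are log2 differences of the floored signals. Differences were tested with limma over all tested probe sets, and called when the Benjamini-Hochberg adjusted p over the 9033 was under 0.05. Region markers opposed the label on 3 arrays. Conventional jejunum 3 had 13.8 for Apoa4, an enterocyte gene, with 1626 for Hoxb13, a gene of the hindgut; conventional rectum 1 had 2766 for Apoa4 with 41.7 for Hoxb13; germ-free corpus 3 had 176 for the gastric gene Atp4a with 1399 for Hoxb13. Markers were mixed on 2 further arrays, called the 2 mixed arrays below. Germ-free rectum 1 had Atp4a at 1968. Germ-free descending colon 1 had Fabp2, an enterocyte gene, at 4005 beside Hoxb13 at 112, but Apoa4 at 43.5 and Car1, a gene of colon and rectum, at 6818. Germ-free corpus 2 also had Car1 at 1432.5 beside Atp4a at 14479, and was kept in the fits that left arrays out for their markers. Labels were kept as given. The called results are stated with and without the 3 arrays that oppose their labels, and some also without the 2 mixed arrays. The tissue is a mixture of cells, in which fewer cells of a type and less RNA per cell cannot be told apart.

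Averaged over the 4 regions, germ-free tissues had less Arntl and more Nr1d2 than conventional tissues. The other REV-ERB gene, Nr1d1, had a difference of the same sign as Nr1d2, and Cry1 one of the same sign as Arntl, but neither passed the test. Of the 9 genes tested, 2 passed, against 1.68% of all 9033 probe sets. Without the adjustment, 5 of 9 had a p under 0.05, against 18.1% of all probe sets. The difference was above 0 for 7 of the 9, against 55.9% of all probe sets, and the median difference was 0.23 for the 9 genes and 0.03 over all probe sets tested.

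**Figure D1:**
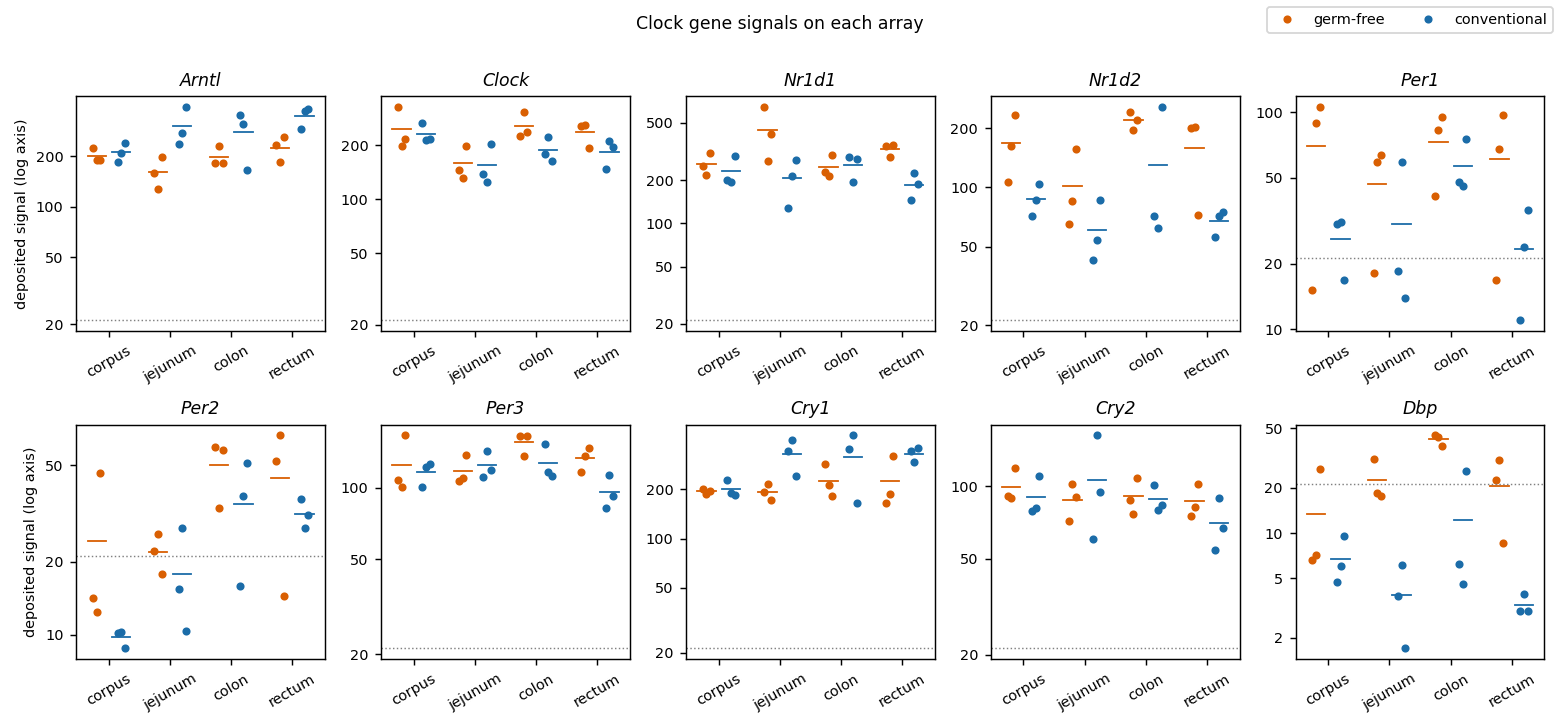
Deposited signal of each clock gene on every array (log axis) by region, with germ-free arrays left of conventional arrays in each region and the floor of 21.2 as a dotted line. Arntl lies lower on the germ-free arrays of jejunum and rectum without overlap, and Nr1d2 lies higher on most germ-free arrays.

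Arntl encodes BMAL1, the partner of CLOCK in the activating limb. In the jejunum, it had 157.9, 127.4 and 198.8 on germ-free arrays, against 236.2, 272.5 and 391.4 on conventional arrays. In the rectum it had 231.3, 183.2 and 259.3 on germ-free arrays, against 289.6, 371.1 and 383.5 on conventional arrays. In both of these regions every germ-free array lay below every conventional array. In the descending colon it had 182.8, 229.1 and 180.7 on germ-free arrays, against 351.6, 312.3 and 166 on conventional arrays, so that conventional array 3 alone lay among and below the germ-free ones. In the corpus it had 221.9, 190.1 and 190.4 on germ-free arrays, against 183.8, 208.2 and 240.1 on conventional arrays, which overlapped throughout.

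Arntl was below the conventional mean of its own region on 11 of 12 germ-free arrays. It averaged 196 ± 35.4 on germ-free arrays and 284 ± 78.9 on conventional arrays (SD, n = 12 each). The difference averaged over regions was -0.50 ± 0.13 on the log2 scale (SE), a 1.42-fold lower level in germ-free tissue, with an adjusted p of 0.0496 in limma. This sits at the threshold: without the 3 arrays that oppose their labels the difference was -0.47 with an adjusted p of 0.0867, and without those and the 2 mixed arrays it was -0.47 with an adjusted p of 0.107. With state and array number as a random block the adjusted p was 0.193, and with the number as a fixed term 0.0529. Leaving out 1 array at a time kept the sign in all 24 fits and the call in 5 of them, with adjusted p from 0.00796 (-0.59, without conventional descending colon 3) to 0.101 (without conventional descending colon 1).

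Clock encodes the other activator and did not pass the test between microbial states. Descending colon signals were 224.3, 305.8 and 235.5 on germ-free arrays, against 179.3, 222.2 and 162.1 on conventional arrays, without overlap. In the corpus it had 325.8, 197.6 and 215.4 on germ-free arrays, against 265.4, 212.4 and 217.4 on conventional arrays. The jejunum had 144.8, 131.3 and 198.6 on germ-free arrays, against 137.5, 125.3 and 201.5 on conventional arrays. In these last regions the arrays overlapped, as they did in the rectum, with 255.9, 259.9 and 191.9 on germ-free arrays, against 147.8, 209.9 and 194.6 on conventional arrays. The difference averaged over regions was 0.23 ± 0.12 (SE, adjusted p = 0.331 in limma).

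Nr1d2 encodes REV-ERB beta, a repressor of Arntl. In the corpus it had 105.9, 162.3 and 232.6 on germ-free arrays, against 71.6, 85.8 and 103.8 on conventional arrays, and the states did not overlap. On descending colon arrays it had 241.9, 195.8 and 218.8 on germ-free arrays, against 71.5, 62 and 255.6 on conventional arrays. On rectum arrays it had 199.3, 202.2 and 72.3 on germ-free arrays, against 56.2, 71.4 and 75.2 on conventional arrays. In each of these hindgut regions 1 array lay with the other state, conventional descending colon 3 on the high side and germ-free rectum 3 on the low side. In the jejunum it had 65.4, 84.9 and 155.8 on germ-free arrays, against 43, 53.9 and 86 on conventional arrays, which overlapped.

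All 12 germ-free arrays had more Nr1d2 than the conventional mean of their region. It averaged 161 ± 64.1 on germ-free arrays and 86.3 ± 55.7 on conventional arrays (SD, n = 12 each). The difference averaged over regions was 0.94 ± 0.24 (SE), 1.91-fold higher in germ-free tissue, with an adjusted p of 0.0496 in limma. Without the 3 arrays that oppose their labels it was 0.90 with an adjusted p of 0.0836, and without those and the 2 mixed arrays 0.83 with an adjusted p of 0.116. With state and array number as a random block the adjusted p was 0.177. Leaving out 1 array at a time kept the sign in all 24 fits and the call in 5 of them, with adjusted p from 0.00697 (1.10, without conventional descending colon 3) to 0.101 (without conventional descending colon 1).

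Nr1d1, which encodes REV-ERB alpha, had the lowest adjusted p of the tested clock genes in a single region, in the jejunum, though it did not pass there. It had 645.6, 270.2 and 418.3 on germ-free arrays, against 127.6, 214.3 and 275.7 on jejunum arrays of conventional mice, where germ-free array 2 and conventional array 3 overlapped by a small margin. Rectum signals were 348, 291.4 and 351.4 on germ-free arrays, against 145.8, 222.6 and 188.2 on conventional arrays, with no overlap. The corpus had 252.2, 217 and 307.1 on germ-free arrays, against 200.1, 195.5 and 294 on conventional arrays. The descending colon had 229.1, 214.5 and 297.9 on germ-free arrays, against 291.4, 194 and 282.6 on conventional arrays, and in both of these the states overlapped. Nr1d1 averaged 320 ± 119.1 on germ-free arrays and 219 ± 55.9 on conventional arrays (SD, n = 12 each). The difference averaged over regions, 0.52 ± 0.15 (SE), did not pass (adjusted p = 0.0862 in limma).

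**Figure D2:**
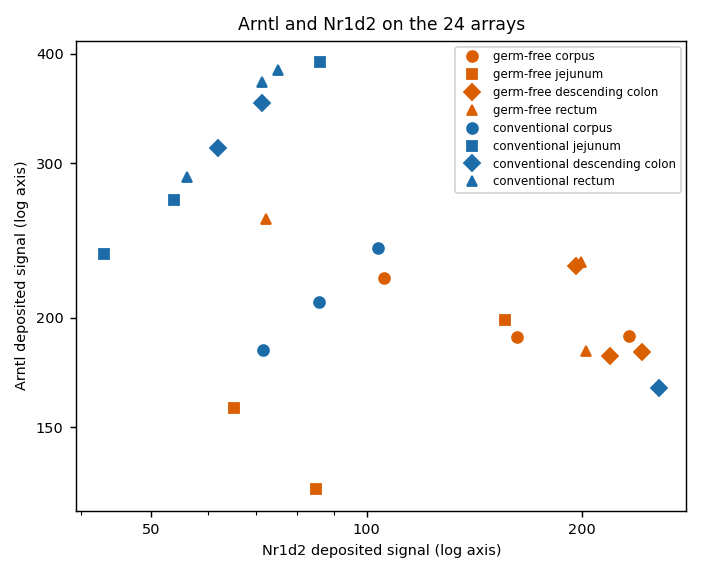
Arntl signal against Nr1d2 signal on the 24 arrays (log axes), with symbols for microbial state and region. Germ-free arrays lie toward high Nr1d2 and low Arntl, and conventional descending colon 3, with Nr1d2 at 255.6 and Arntl at 166, lies among them.

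Per1, Per2 and Per3 encode the PERIOD repressors, and none passed the test between states. Per1 and Per2 were dim: 7 and 10 of 24 arrays were at or under the floor. Per1 had 15.2, 89.3 and 105.7 in germ-free corpus, against 30.4, 31.1 and 16.9 in conventional corpus. Its rectum signals were 16.8, 67.8 and 97.4 on germ-free arrays, against 11, 23.8 and 35.4 on conventional arrays. In both regions germ-free arrays 2 and 3 were above every conventional array and germ-free array 1 was not.

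In the jejunum, Per1 had 18.1, 58.8 and 63.6 on germ-free arrays, against 18.5, 59.2 and 13.9 on conventional arrays. Its descending colon signals were 41, 82.6 and 94.7 on germ-free arrays, against 47.6, 45.7 and 75.5 on conventional arrays. The germ-free array numbered 1 thus had the least Per1, and the one numbered 3 the most, in 4 of 4 regions. No conventional array number was lowest or highest in all 4 for Per1. Likewise Nr1d2 was highest on the conventional array numbered 3, Nr1d1 lowest on the germ-free array numbered 2, and Per3 highest on the germ-free array numbered 3, each in 4 of 4 regions. For Arntl, Clock, Per2, Cry2 and the tested Cry1 probe set no number was lowest or highest in all 4. No share over all probe sets is given here for such orders. The median signal of the whole array had the Per1 order on germ-free arrays in 4 of 4 regions. For arrays 1, 2 and 3 it was 79.35, 93.8 and 103.5 in the descending colon and 82.1, 85 and 102.5 in the corpus. It was 68.6, 68.9 and 88.4 in the jejunum and 78.2, 82.55 and 89.9 in the rectum. Its part in these orders was not tested. Per1 averaged over regions differed by 0.74 ± 0.31 (SE, adjusted p = 0.22 in limma).

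Per2 had 14.2, 12.4 and 46.5 in germ-free corpus, against 10.2, 10.3 and 8.8 in conventional corpus, where only germ-free array 3, which opposes its label, was above the floor. For the descending colon the values were 59.4, 33.3 and 57.7 on germ-free arrays, against 15.9, 37.4 and 51.2 on conventional arrays. For the rectum the values were 52.2, 66.5 and 14.5 on germ-free arrays, against 36.3, 27.6 and 31.1 on conventional arrays. The states overlapped in both hindgut regions, and germ-free rectum 3, low in Nr1d2, was again the low array. The jejunum had 22.2, 26 and 17.8 on germ-free arrays, against 15.4, 27.5 and 10.4 on conventional arrays, at or near the floor throughout. The difference averaged over regions was 0.32 ± 0.21 (SE, adjusted p = 0.426 in limma).

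Per3 was above the floor on every array, between 82.3 and 165.4. In the rectum it had 116.3, 135.6 and 145.9 on germ-free arrays, against 82.3, 112.9 and 92.5 on conventional arrays, without overlap. In the other regions the states overlapped, and the difference averaged over regions was 0.19 ± 0.11 (SE, adjusted p = 0.352 in limma).

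Cry1 and Cry2 encode the CRYPTOCHROME repressors. The bright Cry1 probe set carries the suffix f, which the array's maker gives to probe sets that may also bind related transcripts. In the jejunum it had 194.1, 215.7 and 171.4 on germ-free arrays, against 344, 402.7 and 241.3 on conventional arrays, without overlap. Its descending colon signals were 285.2, 212.3 and 183.1 on germ-free arrays, against 355.8, 429.3 and 164.2 on conventional arrays. In the rectum it had 164.3, 187.6 and 322.6 on germ-free arrays, against 343.8, 292.9 and 360.2 on conventional arrays. Again conventional descending colon 3 and germ-free rectum 3 were the arrays that lay with the other state. Conventional descending colon 3 also differed in marker sums from arrays 1 and 2 of its group: 5 skeletal muscle genes summed to 1384.5 on it, against 237 and 315.4, 7 smooth muscle genes to 24333.8, against 13492.4 and 12464.8, and 2 adipocyte genes to 637.6, against 357.7 and 296.7. On germ-free rectum 3 the adipocyte genes summed to 484.1, against 92.4 and 116.8 on arrays 1 and 2 of its group. The skeletal muscle genes summed to 420.8, against 241.8 and 301.6. Its smooth muscle sum of 14809.2 lay between those of the other arrays, 9225.3 and 19316.3. The part of these sums in the clock gene signals of the 2 arrays was not tested.

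The corpus had 200.6, 187.5 and 195.7 for Cry1 on germ-free arrays, against 228.6, 191.2 and 186.3 on conventional arrays, which overlapped. All 12 germ-free arrays had less Cry1 than the conventional mean of their region. Cry1 averaged 210 ± 46.9 on germ-free arrays and 295 ± 90.1 on conventional arrays (SD, n = 12 each), and the difference averaged over regions, -0.45 ± 0.15 (SE), did not pass (adjusted p = 0.123 in limma). It passed in 1 of 24 fits that left out 1 array (-0.56, adjusted p = 0.0205, without conventional descending colon 3) and in 0 of 11 other alternatives. The other Cry1 probe sets were at or under the floor on 23 and 22 of 24 arrays, and reached 27.4 and 22.6. They therefore give no second reading of Cry1.

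Cry2 lay between 54.6 and 163.1, with overlap in every region. It averaged over regions a difference of 0.09 ± 0.15 (SE, adjusted p = 0.798 in limma), with 6 of 12 germ-free arrays above the conventional mean of their region.

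Dbp encodes the D-box activator at the output of the loop, and its transcript is among the most strongly cycling in many mouse tissues. Its probe set reached 44.8, under the brightness of 51.5 required on 3 arrays, and was not tested. In the descending colon it had 44.8, 43.6 and 38 on germ-free arrays, against 6.2, 4.6 and 25.9 on conventional arrays, and every germ-free array was above every conventional one. In the rectum it had 22.6, 30.9 and 8.6 on germ-free arrays, against 3, 3.9 and 3 on conventional arrays. The 2 germ-free arrays above the floor there were 1 and 2, and number 3 was again the low one.

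In the jejunum, Dbp had 31.2, 18.6 and 17.8 on germ-free arrays, against 3.8, 6.1 and 1.7 on conventional arrays. In the corpus it had 6.6, 7.1 and 26.8 on germ-free arrays, against 4.7, 6 and 9.5 on conventional arrays. Signals under the floor have no order, so the count that can be read is that 7 of 12 germ-free arrays and 1 of 12 conventional arrays, descending colon 3, exceeded the floor. With no brightness filter Dbp passed in the descending colon, with a difference of 0.89 (adjusted p = 0.0358 in limma), where 0.0403% of 12422 probe sets passed. It also passed averaged over regions, with 0.35 (adjusted p = 0.0287), where 0.902% passed. These differences and their p-values depend on the floor, which holds most Dbp values. It leaves no log2 spread among conventional arrays of corpus, jejunum or rectum, so these p-values do not measure array-to-array spread there.

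**Figure D3:**
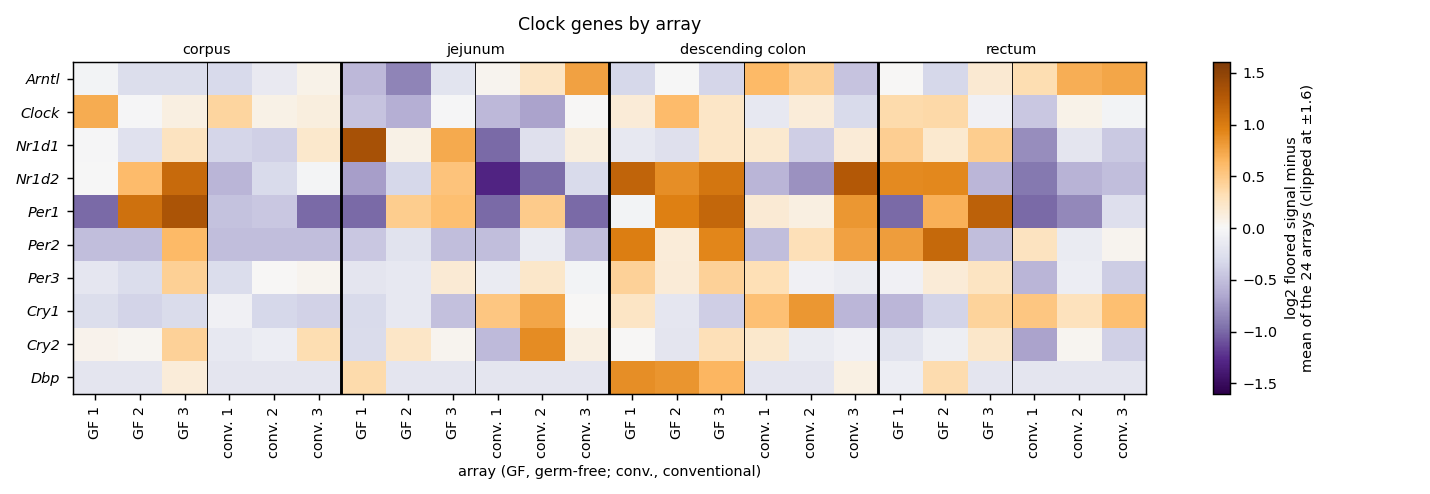
Log2 floored signal of each clock gene minus its mean over the 24 arrays (colour, clipped at ±1.6), with germ-free arrays before conventional arrays in each region. Conventional descending colon 3 has the colours of the germ-free arrays of its region for Arntl, Cry1 and Nr1d2, with Dbp (25.9) between the states, and germ-free rectum 3 those of the conventional arrays for Cry1, Nr1d2 and Dbp. Conventional descending colon 3 lies with its own state for Clock and Per3, and germ-free rectum 3 with its own for Arntl, Nr1d1 and Per3.

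Within single regions no clock gene passed the test between states. Of all probe sets, 0% passed in the corpus, 0.465% in the jejunum, 0.0111% in the descending colon and 0.0111% in the rectum. Before adjustment in limma, p was under 0.05 for 0 of 9 genes in the corpus, where 9.04% of all probe sets were, for 3 of 9 in the jejunum, where 13.1% were, and for 1 of 9 in the descending colon, where 8.11% were. In the rectum it was 5 of 9 (Arntl, Cry1, Nr1d1, Nr1d2 and Per3), where 3.49% of all probe sets were. In the jejunum, Nr1d1 differed by 1.09 ± 0.30 (SE, adjusted p = 0.106 in limma), Arntl by -0.89 ± 0.26 (adjusted p = 0.126) and Cry1 by -0.74 ± 0.30 (adjusted p = 0.274). Arntl passed there only when germ-free jejunum 3 was left out, at -1.05 with an adjusted p of 0.0489. Without conventional jejunum 3, whose markers oppose its label, the Arntl difference was -0.68 with an adjusted p of 0.4. Without all 3 arrays that oppose their labels it was -0.68 with an adjusted p of 0.3. In the rectum, Nr1d2 differed by 1.09 ± 0.48, Nr1d1 by 0.85 ± 0.30 and Arntl by -0.64 ± 0.26, each with an adjusted p of 0.982. In the descending colon, Nr1d2 differed by 1.06 ± 0.48 (adjusted p = 0.612), and in the corpus by 0.88 (adjusted p = 0.603), where Per1 differed by 1.11 (adjusted p = 0.613).

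Of the 9 genes, 2 had states that did not overlap in the corpus (Nr1d2, and Per2, whose signals there were mostly under the floor and so have no order), 2 in the jejunum (Arntl and Cry1), 1 in the descending colon (Clock) and 3 in the rectum (Arntl, Per3 and Nr1d1). Over all probe sets these shares were 13.6% in the corpus, 15.6% in the jejunum, 14.4% in the descending colon and 11.6% in the rectum. Whether the status effect differed between regions was tested directly, and 0 of 9 genes passed, against 0.0221% of all probe sets. The lowest p was that of Nr1d1 (unadjusted p = 0.0465, adjusted p = 0.906 in limma), the only one of the 9 under 0.05 before adjustment, where 5.4% of all probe sets were.

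**Figure D4:**
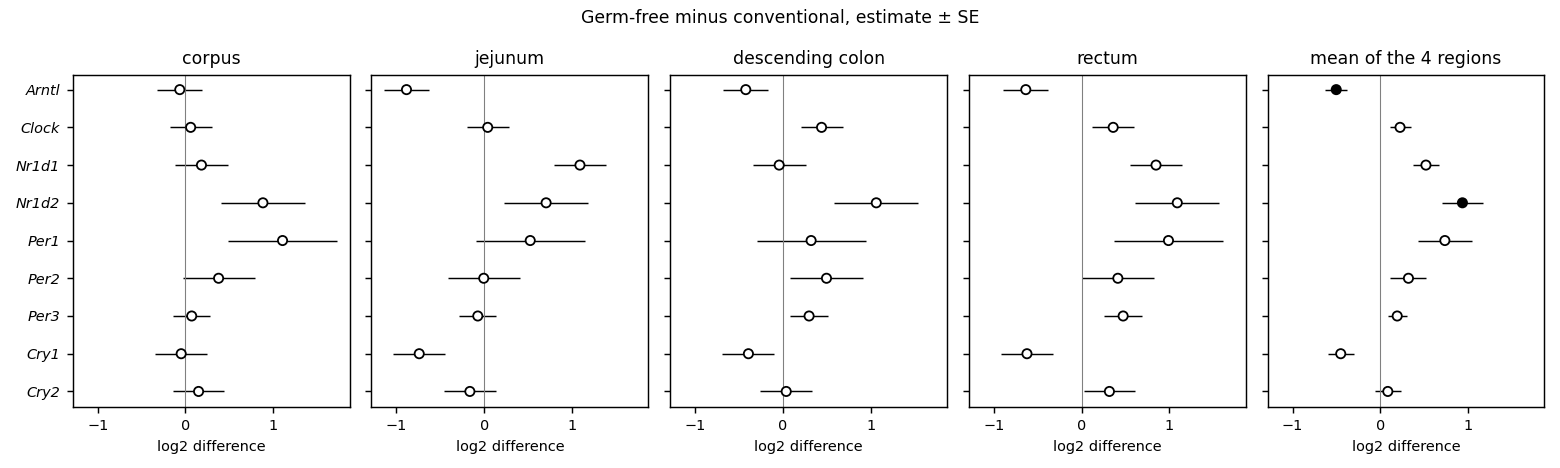
Germ-free minus conventional log2 difference ± SE for each tested clock gene, averaged over the regions and in each region, with filled points for an adjusted p under 0.05. Arntl at -0.50 and Nr1d2 at 0.94 are filled in the average and no point is filled in a single region.

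Between regions, with both microbial states averaged, Clock was lower in the jejunum than in the corpus. It ranged from 125.3 to 201.5 (median 141.15) on 6 jejunum arrays, against 197.6 to 325.8 (median 216.4) on 6 corpus arrays, so that only the ends of the ranges met. The difference was -0.62 ± 0.17 (SE, adjusted p = 0.00783 in limma), and it was the 1 call among 9 genes, against 32.9% of all probe sets and 19.2% in the same direction. Without the 3 arrays that oppose their labels it was -0.76 (adjusted p = 0.00164), and with array medians equalised it was -0.43 and did not pass (adjusted p = 0.0665). The summed signal of 7 smooth muscle genes also differed, from 4935 to 13728 on jejunum arrays and from 16448 to 28674 on corpus arrays, and its part in the Clock difference was not tested.

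Between descending colon and jejunum, Nr1d2 was higher in the descending colon. It ranged from 62 to 255.6 (median 207.3) on descending colon arrays, against 43 to 155.8 (median 75.15) on jejunum arrays, which overlapped. The difference of 1.01 ± 0.34 (SE, adjusted p = 0.0486 in limma) was the 1 call among 9 genes, against 14.4% of all probe sets and 9.1% in the same direction. It was 0.69 without conventional descending colon 3 (adjusted p = 0.143) and 1.15 without the 3 arrays that oppose their labels (adjusted p = 0.0195). Clock, at 0.50 ± 0.17 (adjusted p = 0.053), and Per2, at 0.82 ± 0.29 (adjusted p = 0.0627), lay just outside the threshold. The smooth muscle sum, 12465 to 24334 on descending colon arrays, was above most of the jejunum range, and its part was not tested. Between rectum and descending colon 0 of 9 genes and 0% of all probe sets passed in limma, and an unadjusted p under 0.05 was found for 0 of 9 genes and 2.24% of all probe sets.

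Within groups, Arntl and Per2 were inversely related across arrays, with a p near the threshold that did not hold under other settings. With each group's mean subtracted, Arntl and Per2 correlated at Pearson r = -0.61 over 24 arrays (permutation within groups, p = 0.00582, adjusted p = 0.0466 over 8 pairs of Arntl with another clock gene). Spearman's rho was -0.59 (permutation p = 0.00688, adjusted p = 0.055), and r was -0.49 without the 2 arrays farthest from the Arntl median. Within regions r was -0.27 in the corpus, -0.51 in the jejunum, -0.84 in the descending colon and -0.76 in the rectum, each over 6 arrays. Many Per2 values sit at the floor. The pair did not pass (adjusted p from 0.0706 to 0.36 by permutation) with array medians equalised, with quantile normalization, with either other floor, or without the 3 or the 5 arrays with opposed or mixed markers.

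Arntl and Clock, the partners of the activating complex, had r = 0.53 (permutation p = 0.0232, adjusted p = 0.0928) and rho = 0.56. Arntl and Nr1d2 had r = -0.29 (adjusted p = 0.538 by permutation), with -0.95 in the descending colon and 0.83 in the jejunum. With Nr1d1, the other REV-ERB gene, Arntl had a positive r of 0.36 (adjusted p = 0.445 by permutation). By region that r was 0.55 in the corpus, 0.69 in the jejunum, -0.36 in the descending colon and 0.83 in the rectum. Among 8092 probe sets of 1 gene, those most like Arntl by Pearson r over the 24 arrays, with group means subtracted, were Nfe2l1 (0.88), Rhoa (0.83), Foxd2 (0.78), Rab10 (0.78) and Gipc1 (0.77). These likenesses are descriptions with no test.

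Few of the accessory parts of the loop passed the test between microbial states. Of 27 listed regulators, which include the ROR activators, the BHLHE repressors, casein kinases and the other PAR bZIP factors, 13 genes were tested, with 24 probe sets. None rose and 1 probe set fell in germ-free tissue, against 0.864% of all probe sets lower. An unadjusted p under 0.05 in limma was found for 2 of the 24, against 18.1% of all probe sets. The median difference of the list was 0.01, against 0.03 over all probe sets. The probe set that fell was 1 of 3 for Csnk1d, a casein kinase that phosphorylates PER proteins. It averaged 701 ± 85.7 on germ-free arrays and 953 ± 151 on conventional arrays (SD, n = 12 each), a difference of -0.44 ± 0.09 (SE, adjusted p = 0.0227 in limma). A second Csnk1d probe set had 876 on germ-free arrays and 878 on conventional arrays, so the probe sets of this gene disagree. Without the 3 arrays that oppose their labels the difference was -0.44 (adjusted p = 0.0228).

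Tef encodes a PAR bZIP factor related to DBP. Its descending colon signals were 276.4, 134.7 and 106 on germ-free arrays, against 73.1, 65.2 and 300.9 on conventional arrays. Its rectum signals were 271.4, 263.5 and 62.6 on germ-free arrays, against 83.5, 131.4 and 118 on conventional arrays. Conventional descending colon 3 was the highest and germ-free rectum 3 the lowest array of its region here as well, and the difference averaged over regions, 0.56 ± 0.32 (SE), did not pass (adjusted p = 0.371 in limma). Cipc, an inhibitor of the CLOCK and BMAL1 complex, averaged 225 ± 130 on germ-free arrays and 140 ± 71.3 on conventional arrays (SD, n = 12 each; adjusted p = 0.152), and Timeless differed by -0.20 (adjusted p = 0.353).

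Across regions, 2 of the 24 regulator probe sets, both of Csnk1d, had a higher signal in jejunum than in corpus tissue, against 13.7% of all probe sets, and 1 was lower, against 19.2%. That was Rora: this gene, a nuclear receptor that activates Arntl, had a log2 difference of -1.88 (adjusted p = 0.00011 in limma). Between descending colon and jejunum 2 of the 24 were higher, against 9.1% of all probe sets: Cipc by 1.57 (adjusted p = 0.00519) and Bhlhe40, a repressor that competes at E-boxes, by 0.73 (adjusted p = 0.0408), while none of the 24 was lower, against 5.34%. Each of these shares is below its background. Without the 3 arrays that oppose their labels the differences were -2.16 for Rora, 1.86 for Cipc and 0.87 for Bhlhe40, each still called.

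Of 14 listed output genes known to cycle under clock control, 12 were tested, with 15 probe sets, and 1 rose in germ-free tissue while none fell. The share of all probe sets that rose was 0.819%. The gene was Slc2a5, the fructose transporter of the small intestine. In the jejunum it had 243, 170.2 and 155.7 on germ-free arrays, against 118.2, 74.3 and 26.1 on conventional arrays, without overlap. It averaged 113 ± 61.7 on germ-free arrays and 47.8 ± 32.6 on conventional arrays (SD, n = 12 each), and the difference averaged over regions was 1.22 ± 0.28 (SE, adjusted p = 0.0296 in limma). Without the 3 arrays that oppose their labels, of which conventional jejunum 3 is 1, it was 1.15 (adjusted p = 0.0103). Pck1, which encodes the cytosolic enzyme of gluconeogenesis, differed by 0.88 (adjusted p = 0.0769), Noct, a cycling phosphatase, by 0.43 (adjusted p = 0.102) and Nampt, the enzyme of NAD salvage, by -0.41 (adjusted p = 0.203). This Noct probe set carries the suffix f, as the bright one of Cry1 does. The median difference of the list was -0.05. Slc5a1 (3.23) and Pck1 (1.80) were called higher in jejunum than corpus, 2 of 15 probe sets, against 13.7% of all probe sets. Tspo (-0.48) and Cdkn1a (-0.43) were called lower, 2 of 15, against 19.2%. Between descending colon and jejunum Tspo (0.58) was called higher and Slc5a1 (-1.96) lower, 1 of 15 each, against 9.1% and 5.34%. Without the 3 arrays that oppose their labels each call was kept except Cdkn1a (adjusted p = 0.0878 in limma).

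The summed signal of 5 leukocyte genes ranged from 1342 to 3201 on germ-free arrays (median 1988) and from 1027 to 5953 on conventional arrays (median 3138). In the jejunum the leukocyte sums did not overlap, at 1341.6 to 1896.6 on germ-free arrays and 2524.5 to 5798.4 on conventional arrays. The summed signal of 4 neuron and glia genes ranged from 97.9 to 257.8 on germ-free arrays (median 172.85) and from 68.3 to 173.1 on conventional arrays (median 111.75), and in the jejunum from 117.6 to 200.2 on germ-free arrays and from 90.7 to 116 on conventional arrays, without overlap. The summed signal of 2 adipocyte genes did not overlap in the corpus, at 337.5 to 551.8 on germ-free arrays and 157.7 to 263.3 on conventional arrays. In the other regions it overlapped. Array medians ranged from 68.6 to 103.5 on germ-free arrays and from 74.2 to 85.9 on conventional arrays. The part of any of these in the clock gene differences was not tested.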

How the data were processed

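The deposited table holds linear signal intensity values for 12488 probe sets on 24 arrays, made by the authors; the signal algorithm was not given in the sources used here. The mean of the middle 96% of signals was 200.1 on every array, so no further scaling was applied. Gene names come from the platform annotation (10855 with 1 gene, 396 with several, 1237 with none). A floor of 21.2, the 25th percentile over the whole table, was applied before log2. Probe sets above 51.5 (40th percentile) on at least 3 arrays were tested in limma 3.58.1 (R 4.3.3): 8 group means, eBayes with an intensity trend, and Benjamini-Hochberg adjustment over all 9033. All clock probe sets are accounted for, and from each list up to 4 genes with the lowest p between states, and those called, are named. Steps were tested on simulated data. Members and lists were chosen with earlier results of these data known. Same-numbered arrays of a state correlated in their deviations from group means at -0.50 to 0.67 over 36 pairs of regions (median 0.09). The germ-free median was 0.20, with 12 of 18 above 0.1, and the conventional median 0.05, with 4 of 18. Arrays of a state with other numbers correlated at -0.79 to 0.68 over 72 pairs (median -0.05). The lowest and highest values for the same number were those of conventional jejunum with rectum, groups that hold arrays opposing their labels. The check thus cannot decide whether numbers pair arrays. Arrays were taken as unpaired, and fits with a replicate block are given beside. The number of arrays limits the precision.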

Additional observations from a re-analysis of the deposited data

How the results depend on the processing

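Arntl was lower and Nr1d2 higher in germ-free tissue, averaged over regions, under all 35 alternatives each, at -0.59 to -0.45 and 0.83 to 1.10, but with adjusted p-values near the threshold (Arntl passed in 8 and Nr1d2 in 7 in limma). The count of clock genes called, 2 as reported, was 1 with array medians equalised (Arntl), 1 with the filter at the 60th percentile (Arntl), 1 with no filter (Dbp), and 0 with the floor at the 10th or the 40th percentile, with no intensity trend, and without the 3 or the 5 arrays whose markers were opposed or mixed; it stayed 2 under quantile normalization. With the replicate block it was 1 with the number as a fixed term (Nr1d2, adjusted p = 0.0356; Arntl, 0.0529) and 0 with state and number as a random block (0.193 for Arntl, 0.177 for Nr1d2); the estimated correlation was 0.12. Leaving out 1 array at a time gave 0 to 3 calls averaged over regions, 0 to 1 in the jejunum, 0 to 2 between descending colon and jejunum, 1 throughout between jejunum and corpus, and 0 throughout in the corpus, descending colon, rectum, between rectum and descending colon, and for a status effect that differs between regions. Nr1d1 passed without germ-free jejunum 2 (adjusted p = 0.0436). In the descending colon the count was 1 with no filter (Dbp). Between jejunum and corpus it was 0 with array medians equalised (Clock -0.43, adjusted p = 0.0665). Between descending colon and jejunum it was 0 with array medians equalised, quantile normalization or the floor at the 40th percentile, 2 with the filter at the 60th percentile or without the 3 or 5 arrays, and 3 with the random block; the 1 call was Dbp in place of Nr1d2 with no filter, and Per2 (adjusted p = 0.0494) in place of Nr1d2 (0.0528) with no intensity trend. The 1 pair called in the correlations was 0 under each scaling and floor alternative and without the 3 or 5 arrays. No called value changed sign. Equalising array medians moved the median of all probe sets by up to 0.18 (jejunum minus corpus) and, between states, by -0.17 in the descending colon and -0.11 in the rectum. The causes of these changes were not tested. Among the clock genes, dim signals limit Per1, Per2 and Dbp.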

Other observations

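Genes induced by glucocorticoids, hormones that are themselves secreted in a daily rhythm, gave no call between microbial states. Of 8 genes and 11 probe sets tested 0 passed in limma averaged over regions, where 1.68% of all probe sets passed. An unadjusted p under 0.05 was found for 3 of the 11, against 18.1% of all probe sets. The lowest adjusted p was that of Errfi1, a feedback inhibitor of EGF receptor signalling, at 563 ± 109 on germ-free arrays and 404 ± 100.5 on conventional arrays (SD, n = 12 each; log2 difference 0.51, adjusted p = 0.0685). Klf9 differed by 0.34 in 1 of its probe sets (adjusted p = 0.109), Zbtb16 by 0.56 in 1 of its probe sets (adjusted p = 0.172) and Sgk1 by -0.34 (adjusted p = 0.435). That Zbtb16 probe set was dim, with group means from 7.87 to 25.1 in conventional tissue. Between descending colon and jejunum, 5 of the 11 probe sets were higher in the descending colon and 0 lower, against 9.1% and 5.34% of all probe sets. Fkbp5, a co-chaperone of the glucocorticoid receptor, differed by 1.94 (adjusted p = 0.00496) and Klf9, a glucocorticoid-induced factor, by 1.58 in 1 of its probe sets (adjusted p = 0.00553). Without the 3 arrays that oppose their labels these were 2.25 and 1.86, and all 5 calls were kept. The others were Dusp1 (0.73), Ddit4 (0.62) and Zbtb16 in another of its probe sets (1.54). Between jejunum and corpus, Dusp1 (-1.11) and Klf9 (-0.93, the same probe set) were called lower in the jejunum, 2 of 11, against 19.2%. None was called higher, against 13.7%. Both calls held without the 3 arrays. Of 9 immediate early genes, which respond quickly to handling and stress, 0 of 13 probe sets passed between states in limma and 6 had an unadjusted p under 0.05, where 18.1% of all probe sets did. Atf3 differed by 0.42 (adjusted p = 0.0804), Nr4a1 by 0.57 (adjusted p = 0.0898), Egr1 by 0.87 in 1 of its probe sets (adjusted p = 0.147) and Btg2 by -0.33 (adjusted p = 0.116). This Atf3 probe set carries the suffix f, as the bright one of Cry1 does. That Egr1 probe set was dim, with 6.8, 4 and 3.9 on conventional rectum arrays, under the floor. A brighter one averaged more on germ-free arrays in descending colon and rectum (160 and 186, against 122 and 129). It averaged less in corpus and jejunum (194 and 147, against 258 and 161). Between jejunum and corpus it was called lower in the jejunum (-0.55) and Fos higher (1.52), 1 of 13 each, against 19.2% and 13.7%. Both calls held without the 3 arrays that oppose their labels.

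The probe sets most like Nr1d2 over the 24 arrays, chosen after its values were seen, were Man2a1 (r = 0.86), Igfbp3 (0.80), Mat2b (0.79), Tyms-ps (0.78) and Anapc4 (0.76), as descriptions with group means subtracted.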
